A study of Arabidopsis thaliana with 12 samples.

Results

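A set of 10 Arabidopsis genes that mark how a seedling reads and handles light was followed through an oxidative-stress experiment. They were listed by locus, but with earlier results of these data known, so the set is not independent of the values. It holds the phytochrome-interacting factor genes PIF3, PIF4 and PIF5 and the shade-marker genes PIL1, HFR1 and ATHB2. It also holds the paired regulator genes HY5 and HYH, and the early light-inducible protein genes ELIP1 and ELIP2. These 10 loci were found among the 21543 loci of the deposited count table, and all 10 passed the filter on low counts that left 20741 loci for testing. RNA-seq was done on 12 libraries of whole seedlings aged 2 weeks, with 3 libraries in each of 4 groups: wild-type Col-0 and the med8 mutant, each on control medium and on medium with 25 nM methyl viologen. Methyl viologen (paraquat) takes electrons from photosystem I in the light and passes them to oxygen, which makes superoxide. MED8 belongs to Mediator, through which transcription factors reach RNA polymerase II.

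All 4 groups grew on half-strength Murashige and Skoog medium with 1% sucrose under 16 h light and 8 h dark at 21 °C and 80 µmol m-2 s-1, and the treated groups had methyl viologen in the medium for the whole time. The med8 line is named without an allele, so these values describe a single labelled mutant line. The hour of harvest and whether seedlings were pooled are not given in the sources used here. MED8 itself checked the genotype labels: in med8 it was lower than in Col-0 by 1.83 ± 0.11 on the log2 scale on control medium (SE, 3 libraries a group, edgeR adjusted p = 5.51e-05) and by 1.90 ± 0.11 on methyl viologen (edgeR adjusted p = 1.21e-06), with no overlap between genotypes.

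Libraries held 30472194 to 34694751 counts. Col-0 control replicate 1 stood apart from the other Col-0 controls, with a chi-square per degree of freedom of 35.94 and 26.82 against 9.15 between those 2, where 1 would mean sampling noise alone. In the same way med8 control replicate 3 stood apart, with 35.52 and 38.28 against 6.51. In the methyl viologen groups the values ran from 5.97 to 21.46. All 9 root markers and all 5 green shoot markers passed the count filter. Clock genes moved with the treatment: the mean log2 level of 4 morning genes minus that of 6 evening genes was -4.38 to -4.01 in Col-0 controls, -1.24 to -0.52 in Col-0 on methyl viologen, -3.40 to -2.97 in med8 controls and -2.67 to -2.21 in med8 on methyl viologen. Several genes described here follow the clock, and the part that clock phase has in their values was not tested.

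Phytochromes sense red and far-red light. In the light they cause PIF proteins, basic helix-loop-helix transcription factors, to be phosphorylated and mostly degraded. In shade or darkness PIFs persist and switch on shade-marker genes such as PIL1, HFR1 and ATHB2. HY5, a bZIP transcription factor, acts largely against the PIFs: the COP1-SPA ubiquitin ligase removes it in the dark, and in the light it drives genes for photomorphogenesis, pigments and photoprotection, together with its close relative HYH. ELIP1 and ELIP2 are thylakoid proteins related to the chlorophyll-binding antenna, and their genes respond to high light, ultraviolet-B and cold.

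On methyl viologen, 7 of the 10 genes rose and 1 fell in Col-0, and 5 rose and 3 fell in med8. In Col-0 the genes that rose were PIF3, PIF5, ATHB2, HY5, HYH, ELIP1 and ELIP2, and PIF4 fell. In med8 the genes that rose were ATHB2, HY5, HYH, ELIP1 and ELIP2, and PIF4, PIF5 and HFR1 fell. Of these changes, 6 ran the same way in both genotypes (PIF4, ATHB2, HY5, HYH, ELIP1, ELIP2), PIF5 went opposite ways, PIF3 and HFR1 passed the threshold in 1 genotype each, and PIL1 in neither. A call means an adjusted p below 0.05 in edgeR's quasi-likelihood test; of all 20741 loci, 28.8% were called in Col-0 (15.4% higher, 13.4% lower) and 43.1% in med8 (21.8% higher, 21.2% lower). The median log2 change of the 10 genes was 0.36 in Col-0 and 0.68 in med8, beside -0.001 and 0.031 over all loci. In whole seedlings, fewer cells of a type and less RNA per cell cannot be told apart.

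**Figure D1:**
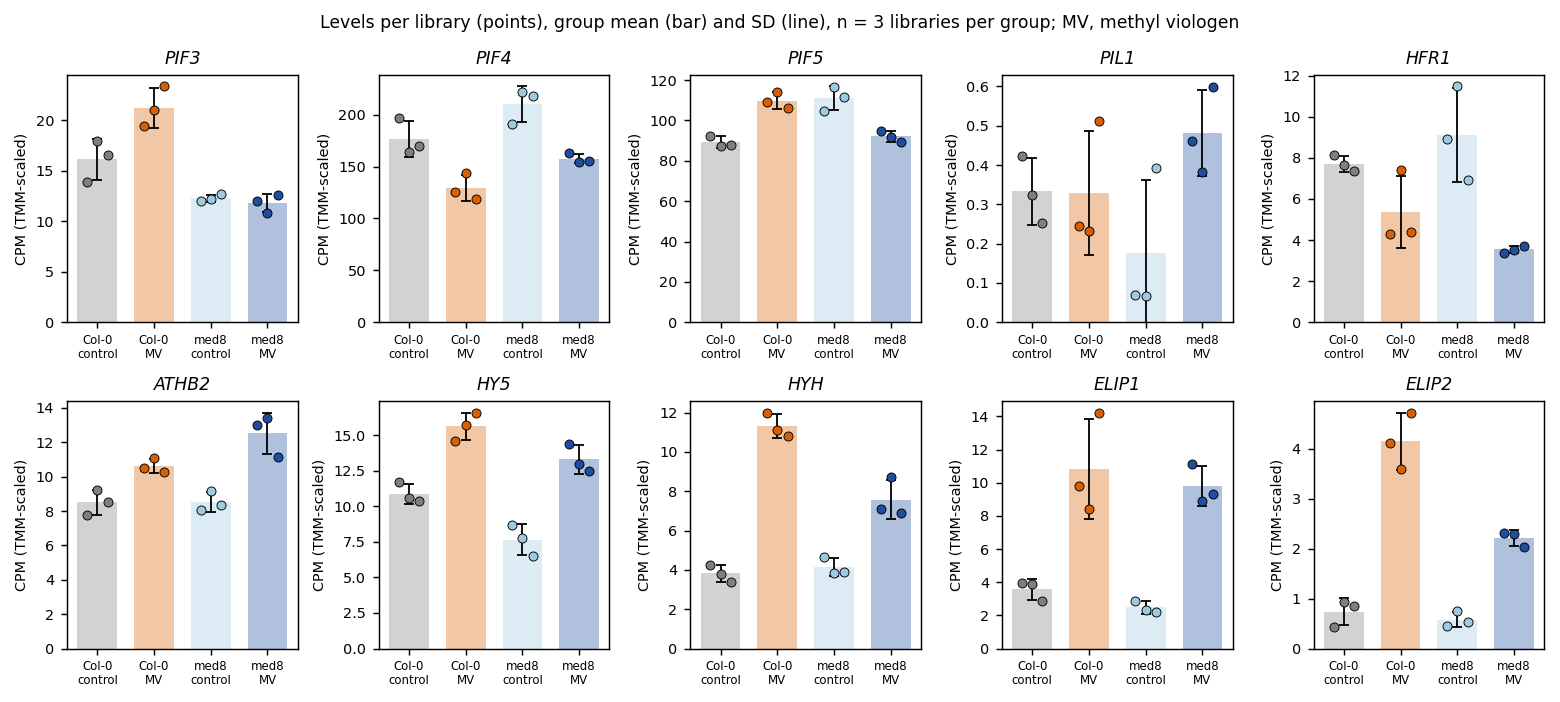
Level of each of the 10 genes in every library, in CPM after TMM scaling, with a separate axis for each gene that starts at 0. Points are the 3 libraries of a group and bars are the mean with its SD; ELIP1, ELIP2 and HYH stand higher on methyl viologen in both genotypes, and PIF4 stands lower.

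PIF4 and PIF5, which promote stem elongation in warmth and shade and at the end of the night, are close relatives that parted in Col-0 and moved together in med8. PIF4 (AT2G43010) lies at chr2:17886101-17889087 on the plus strand and PIF5 (AT3G59060, also PIL6) at chr3:21827905-21830837 on the minus strand, in RefSeq's TAIR10.1 annotation. The 300 bases before each annotated gene start are shown because PIFs bind G-boxes (CACGTG) and HY5 binds sequences with an ACGT core. Capitals mark matches to the G-box, the PBE-box (CATGTG), the ACGT core, the evening element (AAATATCT) and the CCA1-binding site (AAAAATCT), all searched on both strands. The windows are chr2:17885801-17886100 on the plus strand for PIF4 and chr3:21830838-21831137 on the minus strand for PIF5.
PIF4: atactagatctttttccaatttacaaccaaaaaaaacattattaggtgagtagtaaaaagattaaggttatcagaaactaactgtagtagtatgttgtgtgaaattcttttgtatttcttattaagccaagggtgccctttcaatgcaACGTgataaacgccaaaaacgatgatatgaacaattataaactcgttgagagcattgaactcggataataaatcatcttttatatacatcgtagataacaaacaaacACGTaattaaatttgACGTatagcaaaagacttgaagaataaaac
PIF5: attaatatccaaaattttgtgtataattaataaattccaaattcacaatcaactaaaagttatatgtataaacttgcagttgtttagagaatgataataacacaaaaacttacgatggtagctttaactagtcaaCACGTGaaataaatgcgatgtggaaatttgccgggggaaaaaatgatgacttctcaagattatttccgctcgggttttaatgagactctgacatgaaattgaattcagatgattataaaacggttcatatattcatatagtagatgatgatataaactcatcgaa
PIF5 has a G-box 165 bases before its start, and PIF4 has 3 ACGT cores outside any G-box. Over the 300-base windows of 20718 tested loci, 7.86% hold a G-box and 49.5% an ACGT core, which every G-box contains; among the 10 genes these counts are 2 and 7. A match describes the letters in the window and is neither a bound site nor a cause.

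PIF4 was the most abundant of the 10 genes. Its level in Col-0 was 196, 164 and 169.7 counts-per-million units (CPM, TMM-scaled) in the control libraries and 126, 144 and 119 CPM on methyl viologen. In med8 it was 191, 222 and 218 CPM untreated and 163, 155 and 156 CPM treated. Every treated library lay below every control library of its genotype. PIF4 fell by 0.45 ± 0.09 on the log2 scale in Col-0, to a 1.37-fold lower level (edgeR adjusted p = 0.00397). In the mutant it fell by 0.41 ± 0.09, to a 1.33-fold lower level (edgeR adjusted p = 0.00399). These responses differed by 0.03 ± 0.13 log2 units, with a 95% interval of -0.26 to 0.33 and an edgeR adjusted p of 0.913. On methyl viologen PIF4 was 1.22-fold higher in med8 than in Col-0 (edgeR adjusted p = 0.0466), but it no longer passed, at adjusted p up to 0.142, without any 1 of Col-0 control 2 or 3, Col-0 methyl viologen 1 or 3, med8 control 2, or any med8 methyl viologen library, where the log2 difference was 0.23 to 0.30, with the replicate block (0.29, edgeR adjusted p = 0.0707) and with RLE scaling (0.27, edgeR adjusted p = 0.0601).

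PIF5 moved by less but with a tighter spread. Its control level in Col-0 was 92.5, 87.3 and 87.9 CPM, against 109, 114 and 106 CPM on methyl viologen. In med8 the control libraries gave 105, 117 and 112 CPM and the treated libraries 94.8, 92.0 and 89.5 CPM. Col-0 on methyl viologen and med8 on control medium were thus the high groups, and neither overlapped the other 2 groups. In Col-0 PIF5 rose by 0.30 ± 0.06 on the log2 scale (edgeR adjusted p = 0.00311), whereas in med8 it fell by 0.27 ± 0.06 (edgeR adjusted p = 0.00352). The difference between the responses, med8 minus Col-0, was -0.57 ± 0.08 (edgeR adjusted p = 0.00112) and was called in all 19 alternative fits. On methyl viologen med8 was lower than Col-0 by 0.25 ± 0.06 (edgeR adjusted p = 0.00978). On control medium med8 was higher by 0.31 ± 0.06 (edgeR adjusted p = 0.0125), a call lost without Col-0 control 2 (0.30, edgeR adjusted p = 0.0566) or Col-0 control 3 (0.30, edgeR adjusted p = 0.0594) and in a fit of only these groups (edgeR adjusted p = 0.0988).

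Counts of PIF4 divided by those of PIF5 in the same library need no scaling between libraries. This ratio was 2.12, 1.88 and 1.93 in Col-0 controls and 1.15, 1.26 and 1.12 in Col-0 on methyl viologen. In med8 it was 1.82, 1.90 and 1.95 in controls and 1.72, 1.68 and 1.74 on methyl viologen. The Col-0 methyl viologen libraries stood alone at the low end, both control groups overlapped, and treated med8 libraries lay just below them. These ratios are given as a description: with 3 libraries against 3, an exact two-sided permutation test cannot go below p = 0.1. The spliced exons of PIF4 and PIF5 share no window of 75 bases, the read length, and their longest identical run is 23 bases.

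**Figure D2:**
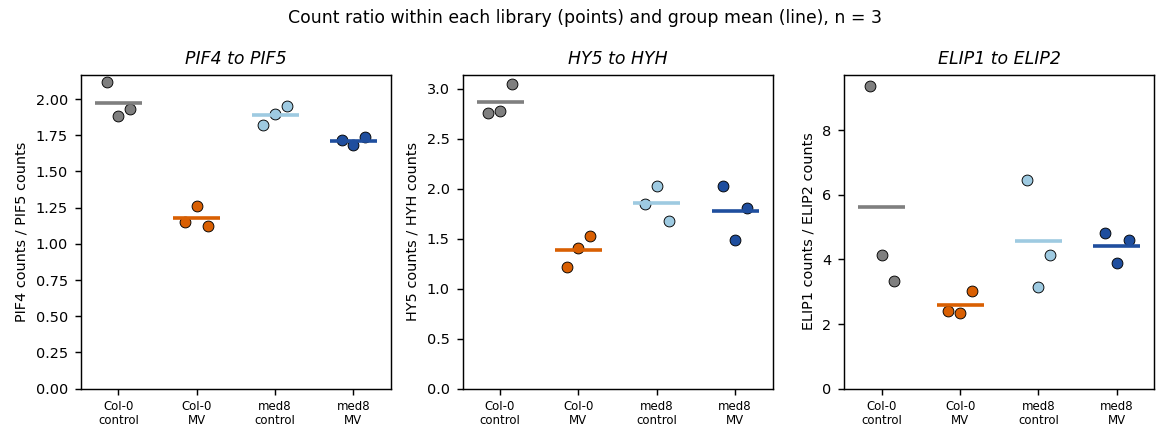
Ratio of counts within each library for PIF4 to PIF5, HY5 to HYH and ELIP1 to ELIP2; points are libraries and bars are group means. The Col-0 methyl viologen libraries lie lowest for PIF4 to PIF5 (1.12 to 1.26), and the Col-0 controls lie highest for HY5 to HYH (2.76 to 3.05).

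PIF3 (AT1G09530, chr1:3075768-3079654, plus strand) represses chlorophyll synthesis and chloroplast development in the dark and was first found as a partner of phytochrome. In Col-0 its level was 13.9, 17.9 and 16.6 CPM untreated and 19.4, 21.0 and 23.3 CPM treated. In med8 it stayed within 11.98, 12.22 and 12.65 CPM untreated and 12.02, 10.82 and 12.57 CPM treated. Every med8 library was below every Col-0 library, and within med8 the treatments overlapped. PIF3 rose by 0.40 ± 0.10 on the log2 scale in Col-0 (edgeR adjusted p = 0.0125), a call that was lost without Col-0 methyl viologen 3 (0.33, edgeR adjusted p = 0.0578). In med8 the change was -0.06 ± 0.10 with a 95% interval of -0.29 to 0.17 (edgeR adjusted p = 0.692). On methyl viologen PIF3 was lower in med8 than in Col-0 by 0.85 ± 0.10 (edgeR adjusted p = 0.000155), the largest genotype difference in PIF mRNA among PIF3, PIF4 and PIF5. On control medium the difference was -0.39 ± 0.10 (edgeR adjusted p = 0.0503); it was called without Col-0 control 1 (-0.49, edgeR adjusted p = 0.0147) and without Col-0 methyl viologen 3 (-0.39, edgeR adjusted p = 0.0474), as well as with RLE scaling (0.0499), upper-quartile scaling (0.043), a filter of 1 CPM in 3 libraries (0.0476) and DESeq2 (0.0186), and without both libraries that stood apart (-0.49, 0.0151). The interaction was -0.46 ± 0.15 (edgeR adjusted p = 0.0619) and was called without Col-0 control 2 (-0.54, edgeR adjusted p = 0.0373), with RLE scaling (0.0468) and with DESeq2 (0.0286).

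The shade markers did not move as a block. HFR1 (AT1G02340, chr1:465616-467880, minus strand) encodes a helix-loop-helix protein that binds PIFs and keeps them off DNA, and shade raises it in wild-type plants. Its level in Col-0 was 8.14, 7.66 and 7.35 CPM untreated and 4.31, 7.40 and 4.38 CPM treated. In med8 it was 8.91, 11.5 and 6.91 CPM untreated and 3.38, 3.53 and 3.73 CPM treated. All 3 treated med8 libraries lay below every other library, while in Col-0 treated replicate 2 fell among the controls. HFR1 fell by 1.36 ± 0.22 on the log2 scale in med8, 2.57-fold lower (edgeR adjusted p = 0.000486). In Col-0 the change was -0.53 ± 0.21 (edgeR adjusted p = 0.0901); it was called without Col-0 methyl viologen 2 (-0.83, edgeR adjusted p = 0.00711), without med8 control 3 (-0.53, edgeR adjusted p = 0.0436) and with the replicate block (-0.56, edgeR adjusted p = 0.0464). The responses differed by -0.83 ± 0.31 (edgeR adjusted p = 0.1), and without med8 control 3 by -1.01 (edgeR adjusted p = 0.0289). The genotypes on methyl viologen differed by -0.59 ± 0.22 (edgeR adjusted p = 0.0738), called without med8 control 3 (edgeR adjusted p = 0.0353), without both libraries that stood apart (0.0385) and with DESeq2 (0.0431).

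ATHB2 (AT4G16780, chr4:9449114-9450905, plus strand) encodes a homeodomain-leucine zipper protein whose gene is a rapid target of PIF4 and PIF5 in shade. In Col-0 it stood at 7.78, 9.24 and 8.52 CPM untreated and 10.5, 11.1 and 10.2 CPM treated. In med8 it stood at 8.05, 9.15 and 8.37 CPM untreated and 13.03, 13.39 and 11.16 CPM treated. Treated libraries were above controls in both genotypes, so ATHB2 and HFR1 ran in opposite directions in med8. ATHB2 rose by 0.55 ± 0.10 on the log2 scale in med8 (edgeR adjusted p = 0.000821) and by 0.32 ± 0.10 in Col-0 (edgeR adjusted p = 0.0298). The Col-0 call was lost, at log2 changes of 0.26 to 0.34 and adjusted p of 0.0518 to 0.0996, without any 1 of Col-0 control 1 or 3 or any Col-0 methyl viologen library. The responses differed by 0.24 ± 0.14 with a 95% interval of -0.06 to 0.54 (edgeR adjusted p = 0.312). The genotypes on methyl viologen differed by 0.24 ± 0.10 (edgeR adjusted p = 0.0949), called without med8 methyl viologen 3 (0.32, edgeR adjusted p = 0.0473).

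PIL1 (AT2G46970, chr2:19295431-19297858, minus strand), a PIF-like gene used as a fast reporter of shade, was close to the limit of detection. Its raw counts were 13, 10 and 8 in Col-0 controls and 9, 8 and 18 in Col-0 on methyl viologen. In med8 they were 2, 2 and 11 on control medium and 16, 14 and 23 on methyl viologen. The summed count was 15 in the med8 controls (exact Poisson 95% interval 8.4 to 24.7, counting error only) and 53 in med8 on methyl viologen (39.7 to 69.3), against 31 and 35 in the corresponding Col-0 groups. No difference in PIL1 passed the test: the log2 change was -0.01 ± 0.52 in Col-0 (95% interval -1.16 to 1.13, edgeR adjusted p = 0.986), while the med8 value was 1.46 ± 0.56 (edgeR adjusted p = 0.0556). The med8 value depended on med8 control 3, without which it was 2.75 (edgeR adjusted p = 0.00219) and the interaction 2.77 (edgeR adjusted p = 0.0218); it was also called without Col-0 methyl viologen 3 (1.46, edgeR adjusted p = 0.0493) and with the replicate block (1.49, edgeR adjusted p = 0.0405).

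HY5 and HYH rose on methyl viologen in both genotypes. In med8 HY5 was called lower than in Col-0 on control medium, and HYH was called lower on methyl viologen. The HY5 interaction was not called (0.27, edgeR adjusted p = 0.282), so a HY5 difference limited to control medium was not shown. Whether HY5 and HYH differ in where the mutant departs from Col-0 was not tested. HY5 (AT5G11260) lies at chr5:3593335-3595073 on the minus strand and HYH (AT3G17609) at chr3:6023844-6024710 on the plus strand. Their upstream windows, chr5:3595074-3595373 on the minus strand and chr3:6023544-6023843 on the plus strand, are shown because HY5 is known to bind ACGT-containing elements, also in its own promoter; capitals are as above.
HY5: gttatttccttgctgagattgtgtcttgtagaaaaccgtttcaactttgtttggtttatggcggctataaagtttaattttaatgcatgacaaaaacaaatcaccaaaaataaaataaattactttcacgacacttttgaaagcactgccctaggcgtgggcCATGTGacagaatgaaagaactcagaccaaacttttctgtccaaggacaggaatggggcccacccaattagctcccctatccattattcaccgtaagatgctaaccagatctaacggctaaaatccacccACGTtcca
HYH: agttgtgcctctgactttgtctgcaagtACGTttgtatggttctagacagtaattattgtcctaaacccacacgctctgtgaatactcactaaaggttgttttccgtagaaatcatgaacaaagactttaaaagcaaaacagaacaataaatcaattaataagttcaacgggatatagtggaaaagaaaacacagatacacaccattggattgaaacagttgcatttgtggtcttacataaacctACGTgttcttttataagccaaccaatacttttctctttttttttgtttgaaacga
HY5 has a PBE-box 138 bases and an ACGT core 8 bases before its start, and HYH has ACGT cores at 272 and 55 bases. The PBE-box, read as CATGTG or CACATG, occurs in 13.2% of all windows and in 1 of the 10 here. Their spliced exons share no window of 75 bases, and the longest identical run is 17 bases.

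HY5 stood at 11.7, 10.6 and 10.4 CPM in untreated Col-0 and 14.6, 15.7 and 16.5 CPM in treated Col-0. In med8 it stood at 8.67, 7.80 and 6.52 CPM untreated and 14.4, 13.01 and 12.5 CPM treated. The med8 controls were the lowest group and the Col-0 methyl viologen libraries the highest, with no overlap between any of the 4 groups. On methyl viologen HY5 rose by 0.52 ± 0.10 on the log2 scale in Col-0, 1.44-fold (edgeR adjusted p = 0.00329), and by 0.80 ± 0.11 in med8, 1.73-fold (edgeR adjusted p = 0.000138). On control medium med8 was lower than Col-0 by 0.51 ± 0.11 (edgeR adjusted p = 0.0221). It no longer passed without Col-0 control 2 (-0.52, edgeR adjusted p = 0.0615), Col-0 control 3 (-0.54, 0.0568) or med8 control 2 (-0.52, 0.0581), without both libraries that stood apart (-0.33, 0.0722), or in a fit of only these groups (0.131). On methyl viologen the genotypes differed by -0.23 ± 0.10 (edgeR adjusted p = 0.131), called without both libraries that stood apart (edgeR adjusted p = 0.0392), and the responses differed by 0.27 ± 0.15 (95% interval -0.06 to 0.60, edgeR adjusted p = 0.282).

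HYH stood at 4.23, 3.81 and 3.41 CPM in untreated Col-0 and 12, 11.1 and 10.8 CPM in treated Col-0. In med8 it stood at 4.68, 3.85 and 3.88 CPM untreated and 7.11, 8.72 and 6.89 CPM treated. The 2 control groups overlapped, and the treated med8 libraries lay between them and the treated Col-0 libraries. HYH rose by 1.57 ± 0.13 on the log2 scale in Col-0, 2.96-fold (edgeR adjusted p = 7.58e-06), and by 0.87 ± 0.13 in med8, 1.83-fold (edgeR adjusted p = 0.000245). On methyl viologen med8 was lower than Col-0 by 0.58 ± 0.12 (edgeR adjusted p = 0.0052), while on control medium the difference was 0.12 ± 0.13 (edgeR adjusted p = 0.662). The response in med8 was smaller by 0.70 ± 0.18 (edgeR adjusted p = 0.0248), but without any 1 of 6 libraries (Col-0 control 2 or 3, Col-0 methyl viologen 1, med8 control 1, med8 methyl viologen 1 or 3) the adjusted p was 0.0565 to 0.0682, at differences of -0.70 to -0.60.

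The ratio of HY5 to HYH counts within a library was 2.76, 2.78 and 3.05 in Col-0 controls and 1.22, 1.41 and 1.53 in Col-0 on methyl viologen. In med8 it was 1.85, 2.03 and 1.68 on control medium and 2.03, 1.49 and 1.81 on methyl viologen. The Col-0 groups were apart, with HYH gaining on HY5, and the med8 groups overlapped each other.

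Both ELIP genes rose on methyl viologen in both genotypes, and ELIP2 had the largest log2 change of the 10 genes in Col-0. ELIP1 (AT3G22840) lies at chr3:8084405-8085669 on the minus strand and ELIP2 (AT4G14690) at chr4:8418242-8419325 on the plus strand. Their upstream windows, chr3:8085670-8085969 on the minus strand and chr4:8417942-8418241 on the plus strand, are shown because the 2 genes rose together while their windows hold different motif matches; capitals are as above.
ELIP1: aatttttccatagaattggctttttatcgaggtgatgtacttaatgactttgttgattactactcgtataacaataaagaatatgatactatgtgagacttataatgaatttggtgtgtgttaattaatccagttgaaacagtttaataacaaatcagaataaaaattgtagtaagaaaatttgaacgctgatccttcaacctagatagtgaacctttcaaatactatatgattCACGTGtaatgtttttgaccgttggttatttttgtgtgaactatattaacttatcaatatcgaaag
ELIP2: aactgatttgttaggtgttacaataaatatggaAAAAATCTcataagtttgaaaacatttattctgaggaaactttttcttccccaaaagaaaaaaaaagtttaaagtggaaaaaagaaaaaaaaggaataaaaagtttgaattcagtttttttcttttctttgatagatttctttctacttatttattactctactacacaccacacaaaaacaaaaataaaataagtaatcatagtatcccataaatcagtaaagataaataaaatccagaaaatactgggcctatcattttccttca
ELIP1 has a G-box 66 bases before its start, and ELIP2 has a CCA1-binding site at 267 bases and no ACGT core in the window. The CCA1-binding site occurs in 7.94% of all windows, and the evening element, in 5.86% of them, in none of the 10 here. Their spliced exons share no window of 75 bases, with a longest identical run of 26 bases.

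ELIP1 stood at 3.97, 3.88 and 2.84 CPM in untreated Col-0 and 9.83, 8.44 and 14.2 CPM in treated Col-0. In med8 it stood at 2.89, 2.33 and 2.21 CPM untreated and 11.2, 8.91 and 9.34 CPM treated. Every treated library was above every control, and the treated groups of both genotypes overlapped. ELIP1 rose 3.04-fold in Col-0 (log2 change 1.60 ± 0.20, edgeR adjusted p = 0.000157) and 3.95-fold in med8 (1.98 ± 0.21, edgeR adjusted p = 2.72e-05). The responses differed by 0.38 ± 0.29 (95% interval -0.26 to 1.01, edgeR adjusted p = 0.459).

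ELIP2 stood at 0.423, 0.937 and 0.852 CPM in Col-0 controls, which is 13, 29 and 27 counts, and at 4.12, 3.60 and 4.72 CPM in treated Col-0. In med8 it stood at 0.447, 0.743 and 0.534 CPM untreated and 2.31, 2.30 and 2.03 CPM treated. The controls of both genotypes overlapped, and the treated med8 libraries were all below the treated Col-0 libraries. ELIP2 rose 5.59-fold in Col-0 (log2 change 2.48 ± 0.25, edgeR adjusted p = 3.29e-05) and 3.82-fold in med8 (1.94 ± 0.27, edgeR adjusted p = 0.000162). On methyl viologen med8 was lower by 0.91 ± 0.22 (edgeR adjusted p = 0.0123), a call lost without med8 methyl viologen 3 (-0.85, edgeR adjusted p = 0.0529). The responses differed by -0.55 ± 0.38 (95% interval -1.37 to 0.28, edgeR adjusted p = 0.399), so a smaller ELIP2 response in med8 was not shown. ELIP1 exceeded ELIP2 in counts in all 12 libraries, by 2.35 to 3.01 times in Col-0 on methyl viologen and 3.88 to 4.82 times in med8 on methyl viologen.

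**Figure D3:**
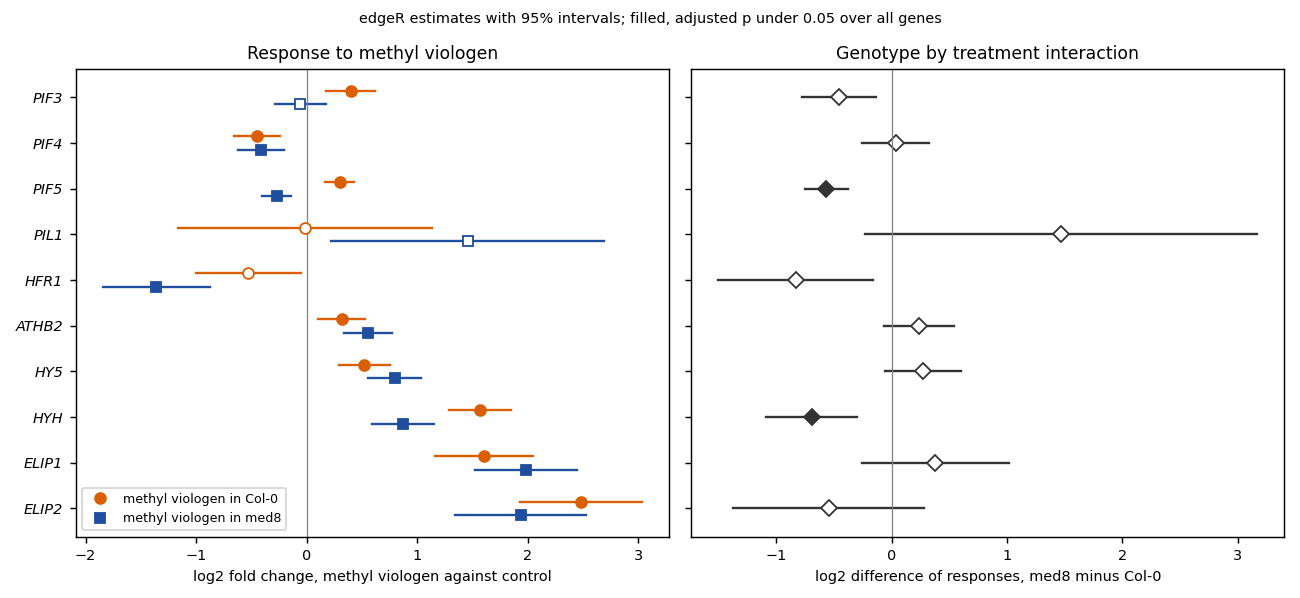
Log2 change of each gene on methyl viologen in Col-0 and in med8, with 95% intervals from the edgeR fit, and the difference between these responses. PIF5 lies on opposite sides of 0 in the 2 genotypes (0.30 and -0.27), and the intervals of PIL1 are the widest.

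Between genotypes, fewer of the 10 genes were called. On control medium PIF5 was higher and HY5 lower in med8, where 5.79% of all loci were called (2.81% higher, 2.98% lower), and neither call held with every library left out in turn: the count of 2 fell to 0 without Col-0 control 2 or Col-0 control 3 and to 1 without med8 control 2. On methyl viologen PIF4 was higher and PIF3, PIF5, HYH and ELIP2 were lower in med8, where 23.7% of all loci were called (10.8% higher, 12.9% lower). The interaction, the response in med8 minus that in Col-0, was called for PIF5 and HYH, both lower, beside 13.9% of all loci (6.25% higher, 7.66% lower). That count of 2 was 1 without Col-0 control 3, Col-0 methyl viologen 1, med8 control 1, or med8 methyl viologen 1 or 3, and 4 without med8 control 3. The comparisons share groups: each treatment comparison uses the controls and treated libraries that the genotype comparisons use again, so their results are not independent. Median log2 differences of the 10 genes were -0.18 on control medium, -0.24 on methyl viologen and -0.21 for the interaction, beside 0.00, 0.01 and 0.01 over all loci.

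Levels of different genes were compared per kilobase of annotated exon. In Col-0 controls the order was PIF4 at 68.1 ± 6.65 CPM per kb (SD, n = 3), PIF5 at 34.8, HY5 at 8.67, ATHB2 at 6.39, PIF3 at 5.83, HFR1 at 5.07, HYH at 4.93, ELIP1 at 3.44, ELIP2 at 0.811 and PIL1 at 0.193 CPM per kb, where ATHB2 and PIF3, PIF3 and HFR1, and HFR1 and HYH overlapped as neighbours. On methyl viologen in Col-0 PIF4 was at 49.8 and PIF5 at 42.8, HYH at 14.6 and HY5 at 12.4, and ELIP1 at 10.5 CPM per kb, so that HYH stood above HY5 there and below it in the controls. In med8 on methyl viologen HY5 was at 10.6 and HYH at 9.77 CPM per kb, with overlapping libraries. The mean level of ELIP2 differed 7.21-fold between its highest and lowest group and that of ELIP1 4.38-fold, against 1.24-fold for PIF5.

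In the rest of the PIF family, of 4 other PIF genes tested, 2 rose and none fell in Col-0, and 1 rose and 3 fell in med8. Over all loci, 15.4% rose and 13.4% fell in Col-0, and 21.8% and 21.2% in med8. The list medians were 0.27 and -0.47 on the log2 scale. PIF8 changed by 0.72 ± 0.14 in Col-0 and by -0.43 ± 0.15 in med8 (edgeR adjusted p = 0.00298 and 0.0329). The med8 call was lost without med8 control 2 (-0.37, edgeR adjusted p = 0.102), med8 methyl viologen 2 (-0.29, 0.129) or med8 methyl viologen 3 (-0.37, 0.106), and in a fit of only these groups (0.0776). PIF7, which promotes shade growth, fell by 0.64 ± 0.08 in med8 (edgeR adjusted p = 9.17e-05) and had a change of -0.07 ± 0.08 in Col-0 (edgeR adjusted p = 0.558). PIF1, which holds back seed germination, fell by 0.50 ± 0.07 in med8 (edgeR adjusted p = 0.000264). The interaction was called lower for PIF1, PIF7 and PIF8, the same direction as PIF5. PIF6 rose in both genotypes, by 0.50 ± 0.11 in Col-0 and 0.64 ± 0.11 in med8 (edgeR adjusted p = 0.00662 and 0.000971).

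Among regulators that act on PIF or HY5 proteins, 3 of 8 genes of the COP1-SPA-DET1 group rose in Col-0 and none fell, with a median of 0.12. For the counts here, 15.4% of all loci rose and 13.4% fell in Col-0, and 21.8% and 21.2% in med8. SPA3 and SPA4, which help COP1 target HY5, rose by 0.87 ± 0.10 and 0.71 ± 0.09 on the log2 scale in Col-0 (edgeR adjusted p = 7.01e-05 and 0.000103). Of the same 8 genes none rose and 4 fell in med8, with a median of -0.20, a count that was 1 without med8 methyl viologen 2 and 2 without med8 control 1. The interaction was called lower for SPA1, SPA3 and SPA4. On control medium 2 of these 8 genes were higher in med8 than in Col-0 and none lower, with a median of 0.14. Of all loci 2.81% were higher and 2.98% lower there. The number higher was 1 to 3 with 1 library left out and 0 in a fit of only these groups. Of 5 DELLA genes, whose proteins bind and block PIFs in the gibberellin pathway, 2 fell in Col-0 with a median of -0.15: GAI by 0.75 ± 0.08 and RGL1 by 0.46 ± 0.10 (edgeR adjusted p = 3.74e-05 and 0.00466). In med8 2 of the 5 rose and 2 fell, GAI among those that fell, with a median of -0.14. The number that fell was 1 to 2 with 1 library left out. RGL1 went the other way in med8, rising by 0.64 ± 0.10 (edgeR adjusted p = 0.000305), and RGL2 rose there by 0.86 ± 0.18 (edgeR adjusted p = 0.00252). Of 8 photoreceptor genes 3 were called in Col-0 and 5 in med8, beside 28.8% and 43.1% of all loci. In Col-0 1 rose and 2 fell; 2 rose without Col-0 control 1 or med8 control 3, and 1 fell without any 1 of Col-0 control 1 or 3, Col-0 methyl viologen 1 or 2, med8 control 1 or med8 methyl viologen 2. In med8 1 rose and 4 fell, and without med8 methyl viologen 1 none rose. CRY2, a blue-light receptor, fell in both genotypes, by 0.61 ± 0.07 and 0.48 ± 0.07 (edgeR adjusted p = 5.27e-05 and 0.000145), and PHYB rose by 0.36 ± 0.06 in Col-0 (edgeR adjusted p = 0.00111).

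Of 17 other shade and PIF target genes, 6 fell and 2 rose in Col-0, and 7 fell and 3 rose in med8, with medians of -0.14 and -0.39 on the log2 scale. Of all loci 13.4% fell and 15.4% rose in Col-0, and 21.2% and 21.8% in med8; without Col-0 control 3 or Col-0 methyl viologen 1 the count that rose in Col-0 was 1. IAA29, an auxin-response repressor that PIFs induce, fell by 2.13 ± 0.29 in Col-0 and 2.96 ± 0.30 in med8 (edgeR adjusted p = 0.000279 and 2.15e-05). PAR1, a helix-loop-helix inhibitor of shade growth like HFR1, fell by 1.69 ± 0.17 in Col-0 and fell by 1.397 ± 0.175 in med8 (edgeR adjusted p = 3.03e-05 and 7.91e-05). The growth-promoting PRE1 fell by 2.17 ± 0.23 in med8 (edgeR adjusted p = 2.67e-05). YUC9, an auxin synthesis gene that PIFs also induce, went against these and rose by 1.64 ± 0.20 in Col-0 and 2.30 ± 0.20 in med8 (edgeR adjusted p = 0.000102 and 7.17e-06). HAT1 and HAT2, relatives of ATHB2, fell in med8 by 0.76 ± 0.11 and 0.64 ± 0.10 (edgeR adjusted p = 0.000241 and 0.000324), where ATHB2 itself rose.

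Most B-box genes, whose proteins bind HY5 and raise or lower its activity, rose with HY5 in Col-0. Of 8 tested 6 rose and none fell, beside 15.4% and 13.4% of all loci, with a median of 0.75. In med8 1 rose and 4 fell, beside 21.8% and 21.2% of all loci, with a median of -0.33, while HY5 itself rose. The count that rose in med8 was 2 without Col-0 control 1 or med8 control 1. On control medium 3 of the 8 were higher in med8 than in Col-0 and none lower, with a median of 0.45. Beside this, 2.81% of all loci were higher and 2.98% lower. The number higher was 3 to 4 with 1 library left out and 1 in a fit of only these groups. BBX25 rose by 1.35 ± 0.13 on the log2 scale in Col-0 and fell by 0.51 ± 0.13 in med8 (edgeR adjusted p = 2.45e-05 and 0.00727). BBX28, which binds HY5 and hinders it, rose by 0.54 ± 0.07 and fell by 0.47 ± 0.07 (edgeR adjusted p = 0.000284 and 0.000423). BBX30 rose by 1.89 ± 0.26 in Col-0 (edgeR adjusted p = 0.000265), with 0.34 ± 0.25 in med8 (edgeR adjusted p = 0.288). BBX22, which works with HY5, fell in med8 by 0.68 ± 0.10 (edgeR adjusted p = 0.000299). BBX24 differed in sign too, with 0.28 ± 0.07 in Col-0 and -0.45 ± 0.07 in med8 (edgeR adjusted p = 0.011 and 0.000419); the Col-0 call was lost without Col-0 control 2 (0.24, 0.059).

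Of 10 tested genes of the HY5 and ultraviolet-B pathway, 8 rose and 1 fell in Col-0, beside 15.4% and 13.4% of all loci. In med8 5 rose and 2 fell, beside 21.8% and 21.2% of all loci. The medians were 0.85 in Col-0 and 0.13 in med8 on the log2 scale, and without med8 control 3 the count that fell in med8 was 4. CHS, which makes the first flavonoid precursor, rose by 1.45 ± 0.16 in Col-0 and by 1.74 ± 0.16 in med8 (edgeR adjusted p = 5.66e-05 and 1.09e-05). MYB12, a flavonol regulator, rose by 0.79 ± 0.16 and 1.5 ± 0.17 (edgeR adjusted p = 0.00326 and 3.96e-05). GPX7, a glutathione peroxidase of the chloroplast, rose by 2.24 ± 0.21 in Col-0 and fell by 1.07 ± 0.21 in med8 (edgeR adjusted p = 1.78e-05 and 0.00191). RUP2, a brake on the UVR8 receptor, and SIG5, a sigma factor of the plastid polymerase, rose in Col-0 by 1.25 ± 0.13 and 1.32 ± 0.14 (edgeR adjusted p = 3.45e-05 and 4.33e-05). In med8 their changes were -0.34 ± 0.13 and -0.22 ± 0.14 (edgeR adjusted p = 0.0553 and 0.219). RUP2 was called lower without Col-0 control 2 (-0.35, edgeR adjusted p = 0.0482), med8 control 3 (-0.45, 0.0137) or med8 methyl viologen 1 (-0.41, 0.0489). It was also called lower with RLE scaling (-0.36, edgeR adjusted p = 0.0436) and without both libraries that stood apart (-0.45, 0.0149). DESeq2 called it lower too (-0.36, DESeq2 adjusted p = 0.0434). The photolyase gene UVR3 fell in both, by 1.12 ± 0.11 and 1.20 ± 0.11 (edgeR adjusted p = 2.2e-05 and 8.53e-06).

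While ELIP1 and ELIP2 rose in med8, of 9 relatives and other photoprotection genes none rose there and 8 fell, with a median of -0.64. Beside this, 21.8% of all loci rose and 21.2% fell in med8. On control medium 3 of the 9 were higher in med8 than in Col-0 and none lower, with a median of 0.26. Of all loci 2.81% were higher and 2.98% lower. The number higher was 1 to 4 with 1 library left out and 0 in a fit of only these groups. OHP1 and OHP2, one-helix proteins of the same superfamily that help assemble photosystem II, fell by 0.94 ± 0.08 and 0.82 ± 0.07 in med8 (edgeR adjusted p = 5.44e-06 and 8.33e-06). In Col-0 each had a change of -0.07, with SEs of 0.08 and 0.07 (edgeR adjusted p = 0.543 and 0.513). The xanthophyll-cycle gene VDE fell in both, by 0.78 ± 0.08 in Col-0 and 0.98 ± 0.08 in med8 (edgeR adjusted p = 4.59e-05 and 6.24e-06), while ZEP, which catalyses the reverse step, rose by 0.82 ± 0.12 in Col-0 and fell by 0.61 ± 0.12 in med8 (edgeR adjusted p = 0.00057 and 0.002). In Col-0, 2 of the 9 rose and 3 fell, beside 15.4% and 13.4% of all loci. The count that rose was 1 without Col-0 control 1 or 2, Col-0 methyl viologen 1 or 2, or med8 control 1. It was also 1 without med8 methyl viologen 2 or 3, with the replicate block and from only the groups compared. The count that fell was 1 without Col-0 control 1 or Col-0 methyl viologen 1 or 3. Green shoot markers moved with this: 5 of 5 fell in med8 and 1 of 5 in Col-0, and their summed level was 21970 to 26640 CPM in Col-0 controls, 19520 to 20190 in Col-0 on methyl viologen, 24290 to 30610 in med8 controls and 16010 to 19990 in med8 on methyl viologen. Of 9 root markers, 5 fell in Col-0 and 3 fell and 1 rose in med8, and with 1 library left out the numbers that fell ran from 1 to 7 and from 3 to 6. Root markers summed to 1502 to 1877, 1693 to 2472, 738.3 to 1402 and 1093 to 1169 CPM in the same order. The 738.3 CPM was med8 control 3, a library that stood apart, and it also had the highest green shoot sum, 30610 CPM. The part of green shoot or root marker content in these results was not tested.

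**Figure D4:**
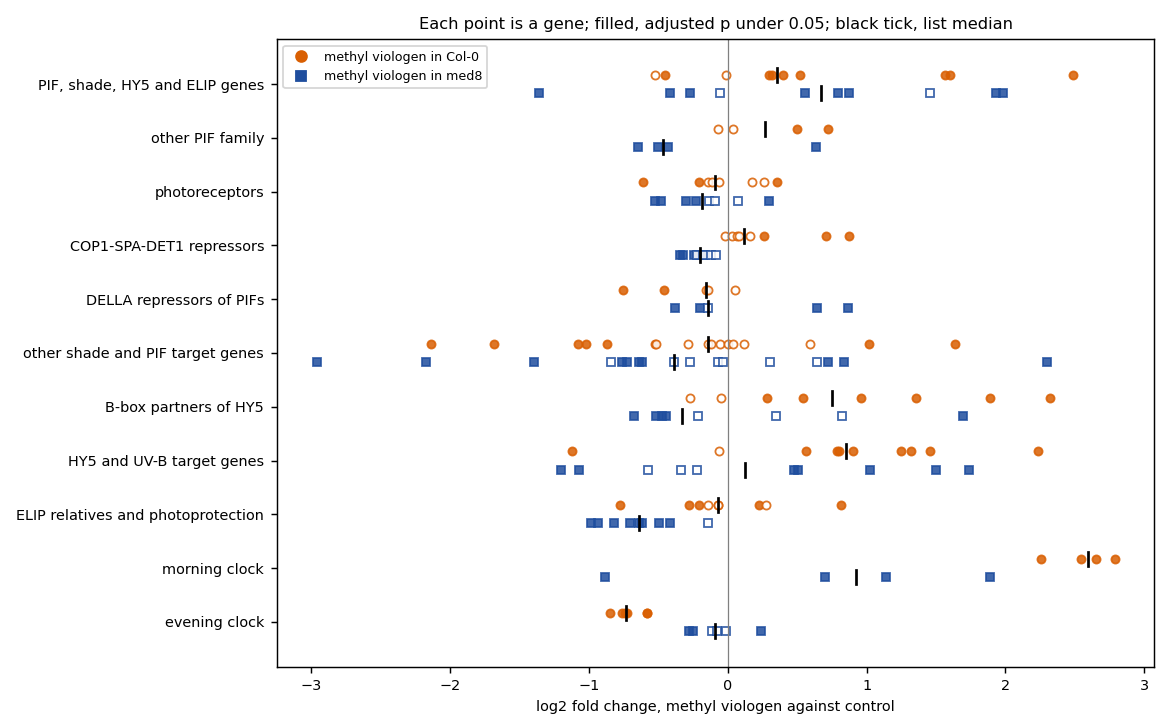
Log2 change on methyl viologen in Col-0 and in med8 for each gene of the related lists, one point per gene, with the list median. The B-box list has its median above 0 in Col-0 (0.75) and below 0 in med8 (-0.33), as does the list of other PIF genes (0.27 and -0.47).

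The morning clock genes had the largest list median in Col-0. All 4 morning genes rose in Col-0 and all 6 evening genes fell, with medians of 2.60 and -0.73 on the log2 scale. Over all loci, 15.4% rose and 13.4% fell in Col-0, and 21.8% and 21.2% in med8. LHY and CCA1, the paired dawn repressors, rose by 2.79 ± 0.18 and 2.65 ± 0.17 in Col-0 (edgeR adjusted p = 1.63e-06 and 1.77e-06). The mutant had 3 morning genes that rose and 1 that fell: LHY rose by 1.89 ± 0.18 and the related RVE8 by 1.14 ± 0.15 (edgeR adjusted p = 1.15e-05 and 0.000134), while RVE1 fell by 0.89 ± 0.21 (edgeR adjusted p = 0.00522). Of the evening genes 1 rose and 2 fell in med8, with 0 to 1 and 1 to 2 when 1 library was left out. PIF4 and PIF5 are both known clock outputs held down by evening proteins early in the night. In Col-0 PIF4 fell while PIF5 rose, and the part of the clock in these changes was not tested. Summed morning transcripts were 22.36 to 29.26 CPM in Col-0 controls and 132 to 187.8 CPM in Col-0 on methyl viologen, against 35.03 to 45.92 and 58.06 to 77.82 CPM in med8.

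Of the 10 genes, 6 varied enough between groups, by over 1 log2 unit, to look for genes of like pattern over the 12 libraries, measured as the root mean square difference of centred log2 levels among 9093 genes with a symbol. For HY5 the nearest were CYP711A1 (0.12), mSFC1 (0.13) and OMTF3 (0.13), and for HFR1 they were PP2-A13 (0.16), GPX1 (0.18) and CXXS1 (0.19). Nearest to HYH were ABCC2 (0.19), CHIL (0.20) and MSRB4 (0.23). ELIP1 was most like FMO (0.23), MGP (0.23) and FRD3 (0.26), and ELIP2 most like BCA3 (0.35), LSU2 (0.36) and CYP705A20 (0.37). PIL1, with its few counts, had nearest values of 0.33 to 0.40. Among the 10 themselves HY5 and HYH differed by 0.40 and PIF4 and PIF5 by 0.30 on this measure. HY5 was nearer to ATHB2 (0.31) and PIF3 (0.37) than to HYH, and PIF5 and ATHB2 also differed by 0.30. PIF3, PIF4, PIF5 and ATHB2 spanned only 0.84, 0.70, 0.31 and 0.55 log2 units between groups, below the limit of 1 used above. For genes that vary so little, a small value on this measure does not show a like pattern.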

How the data were processed

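Polyadenylated RNA of whole seedlings was made into stranded single-end libraries of 75-base reads, per the labels' protocols. The deposited values are whole-number counts of reads per gene, not normalized; the submitters' processing notes name Trim Galore 0.3.3, TopHat2 2.1.0, featureCounts of Subread 1.4.6 and the TAIR10 build. The strand setting, the handling of reads that map to several places and the origin of the 3 replicates are not given in the sources used here, and the p-values therefore reflect differences among these libraries that may be technical.

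Counts of 12 libraries were fitted over the whole table with edgeR 4.0.16 in R 4.3.3 (limma 3.58.1): TMM scaling, filterByExpr with a minimum count of 10 and a minimum total of 15 (802 of 21543 loci removed), 1 mean per group, robust quasi-likelihood tests of 5 comparisons and Benjamini-Hochberg adjustment over 20741 loci. The SE is the log2 change divided by the square root of F. The biological coefficient of variation was 12.7%. The fit was also run on simulated counts with the same spread for every gene and no outlying library. That run therefore does not cover libraries that stand apart. Levels are CPM, and 95% intervals cover the spread between libraries, or counting error where called Poisson. Sequences are from RefSeq's TAIR10.1 genome, on which 21519 loci matched by locus name.

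The 10 genes, the 12 other lists and the alternatives were chosen with earlier results of these data known, so no list is independent support. All 10 genes were named; of each other list, those with the smallest adjusted p, up to 3 per comparison, and those called in the interaction. Some genes that this rule allows, chiefly those whose call changed when 1 library was left out, are given in the report within the counts alone, a choice made after their values were seen. Each result was also computed with DESeq2 1.42.0, with a replicate block, under RLE or upper-quartile scaling, with no count filter or one of 1 CPM in 3 libraries, from the groups compared alone, and with libraries left out.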

Additional observations from a re-analysis of the deposited data

Results flagged for a closer look

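The response to methyl viologen differed between genotypes by the interaction test (edgeR, adjusted p below 0.05) for 2 of the 10 genes, beside 13.9% of all loci. It also differed for 39 genes of the other lists, which were chosen with earlier results of these data known. Tested there were 4 PIF, 8 photoreceptor, 8 COP1-SPA-DET1, 5 DELLA, 17 shade and 8 B-box genes. The rest were 10 HY5 and ultraviolet-B, 9 photoprotection, 4 morning clock, 6 evening clock, 9 root marker and 5 green shoot marker genes. Values are the log2 response in med8 minus that in Col-0. Of the 10 genes these were PIF5 (-0.57) and HYH (-0.70). In the PIF family they were PIF1 (-0.54), PIF7 (-0.57) and PIF8 (-1.15). Among photoreceptors they were PHYB (-0.28) and CRY1 (-0.38). Among regulators of PIF and HY5 proteins they were SPA1 (-0.58), SPA3 (-1.22), SPA4 (-0.95), GAI (0.38) and RGL1 (1.10). Among shade genes they were HAT1 (-0.71), HAT2 (-0.75), PRE1 (-1.15) and PAR2 (0.83). The B-box genes gave BBX24 (-0.73), BBX25 (-1.87), BBX28 (-1.02) and BBX30 (-1.54). The HY5 and ultraviolet-B genes gave RUP2 (-1.58), SIG5 (-1.54) and GPX7 (-3.30). The photoprotection genes gave OHP1 (-0.87), OHP2 (-0.75), LIL3:1 (-0.56), SEP2 (-0.37), PSBS (-0.69) and ZEP (-1.43). All 4 morning clock genes were lower, LHY (-0.90), CCA1 (-1.94), RVE8 (-1.40) and RVE1 (-3.14), and all 6 evening clock genes higher, TOC1 (0.61), GI (0.67), ELF3 (0.33), ELF4 (0.83), LUX (0.74) and PRR5 (0.57). The root marker RHD6 was higher (1.376) and the green shoot marker GAPA lower (-0.58). The calls for HYH, PHYB, CRY1, GAI, PRE1, LIL3:1, SEP2, PSBS, LHY and ELF3 were lost when 1 library or another was left out, and the other calls were not. With 3 libraries a group, no test for a single outlying library was made.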

How the results depend on the processing

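The 10 genes in 5 comparisons gave 985 alternative values: 911 kept their direction and call, 32 lost the call, 27 gained it and 15 changed sign. Their changes of sign were all in differences that were not called. They were PIL1 in Col-0, -0.48 to 0.19 with 1 library left out and 0.19 without both libraries that stood apart; PIF3 in med8, -0.10 to 0.002 with 1 left out; and ATHB2 between genotypes on control medium, -0.059 to 0.07 with 1 left out, -0.002 with upper-quartile scaling, -0.001 with at least 1 CPM in 3 libraries and -0.03 without both. The others were ELIP1 between genotypes on methyl viologen, -0.30 to 0.10 with 1 left out, and the PIF4 interaction, -0.048 to 0.116 with 1 left out and -0.037 without both. Of the 10 genes, the number called between genotypes on control medium was 2; it was 0 from only the groups compared and 0 to 3 with 1 left out. The number called in the interaction was 2; it was 1 to 4 with 1 left out and 4 without both libraries that stood apart. The cause of these changes was not tested. Whether replicate numbers pair the libraries was not settled. Over 18 same-number pairs the correlation of deviations ran from -0.58 to 0.68, and 8 were over 0.1. Pairs of unlike numbers were not compared, so these values have no reference. A fit with the replicate block called 9 of the 10 genes in Col-0 and changed only the calls given for HFR1, PIL1 and PIF4 above. Over all loci, 1200 were called between genotypes on control medium, with 2005 in DESeq2, 143 from only the groups compared, 446 without Col-0 control 2, 402 without Col-0 control 3, 631 without med8 control 2 and 1848 without both libraries that stood apart. On methyl viologen 4906 were called, and 3211 without med8 methyl viologen 2; in the interaction 2885 were called, 1912 without Col-0 methyl viologen 1 and 1874 without med8 methyl viologen 2. PIL1 was removed by the filter of 1 CPM in 3 libraries, and the interaction has no fit from only the groups compared. Of 1961 alternative values of other named genes, 1860 kept direction and call, 91 lost the call, 6 gained it and 4 changed sign; these 4 were OHP1 and OHP2 in Col-0, not called, with -0.13 to 0.008 and -0.11 to 0.005 with 1 left out and 0.011 and 0.008 without both libraries that stood apart. With 2 to 23 counts a library, depth limited PIL1 most.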
